A study of Mus musculus with 16 samples.

Results

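The genes of 8 secreted liver proteins, or hepatokines, that are known to answer to feeding and fasting were followed in mouse liver: Fgf21, Angptl4, Inhbe, Inhbc, Fetub, Ahsg, Gdf15 and Lect2. They were chosen by name, with earlier results of these data known. A gene was taken where a probe set was paired with its symbol and with no other. Of the 8 genes, 7 had such a probe set, 1 each, among 19935 genes measured in all, and Gdf15 was not analysed here. The arrays measured liver RNA of 16 male mice on a mixed Sv129/C57Bl/6 background, 1 array per mouse. They form 4 groups: 3 PPARβ/δ knockout mice fasted for 24 h, 5 wild-type mice fasted for 24 h, 4 fed PPARβ/δ knockout mice and 4 fed wild-type mice. PPARβ/δ is a fatty acid-activated nuclear receptor encoded by Ppard. Neither the deleted part of Ppard, nor the tissues that lack it, nor the age of the mice is given in the sources used here. The study set the effect of the knockout beside the effect of the fast, and each hepatokine was therefore compared between fasted and fed mice within a genotype and between knockout and wild-type mice within a feeding state.

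Hepatokines carry the metabolic state of the liver to other organs. FGF21 is a fasting hormone made under the control of the fatty acid receptor PPARα and of the stress factor ATF4, and it acts through FGF receptors with the coreceptor β-Klotho. ANGPTL4, a product of PPAR target gene Angptl4, inhibits lipoprotein lipase, the enzyme that releases fatty acids from circulating triglyceride. Inhbe and Inhbc encode the βE and βC subunits of activins, which belong to the TGF-β family and are made mainly in liver. Fetuin-B and fetuin-A, from Fetub and Ahsg, are abundant plasma proteins of the cystatin superfamily, of which fetuin-B inhibits the protease ovastacin and fetuin-A binds calcium phosphate and the insulin receptor. LECT2, first described as a neutrophil chemotactic factor, rises with overfeeding, and GDF15 is a stress hormone that acts on the brainstem receptor GFRAL.

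Values are log2 of the normalised probe set intensity, and a change is a difference of group means on that scale with the standard error of the fit. It counted as passed at a Benjamini-Hochberg adjusted p under 0.05 in limma. Replicates of a group correlated at 0.983 to 0.991 over genes, and none of the 11 hepatocyte markers had a group mean under the dim limit, the 40th percentile of gene means (log2 2.79). Some arrays stood apart by genes of other tissues or states, shown as the mean log2 deviation of a marker list from its genes' means. The 8 skeletal muscle markers lay at 2.77 in knockout fasted mouse 1 and at 3.85 and 1.98 in wild-type fed mice 4 and 2, against -0.87 to -0.50 in the other arrays. The 18 pancreas markers lay at 1.64 in wild-type fasted mouse 5, against -0.23 to 0.20 elsewhere. The 31 positive acute phase genes lay at 1.56 and 1.04 in knockout fed mice 4 and 1, against -0.51 to 0.31 elsewhere. The 14 stellate cell and fibroblast markers lay at 0.69 in wild-type fed mouse 4, against -0.30 to 0.30 elsewhere. A whole group stood apart for the 15 Kupffer cell markers, at 0.31 to 0.43 in knockout fed livers against -0.55 to 0.15 elsewhere. Ppard itself gave 4.36 to 4.58 in knockout fasted, 4.40 to 4.67 in wild-type fasted, 4.45 to 5.00 in knockout fed and 4.78 to 5.50 in wild-type fed mice, which checks no label because the place of the deletion relative to the probe set is unknown. In whole liver, fewer cells of a type and less RNA per cell cannot be told apart.

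**Figure D1:**
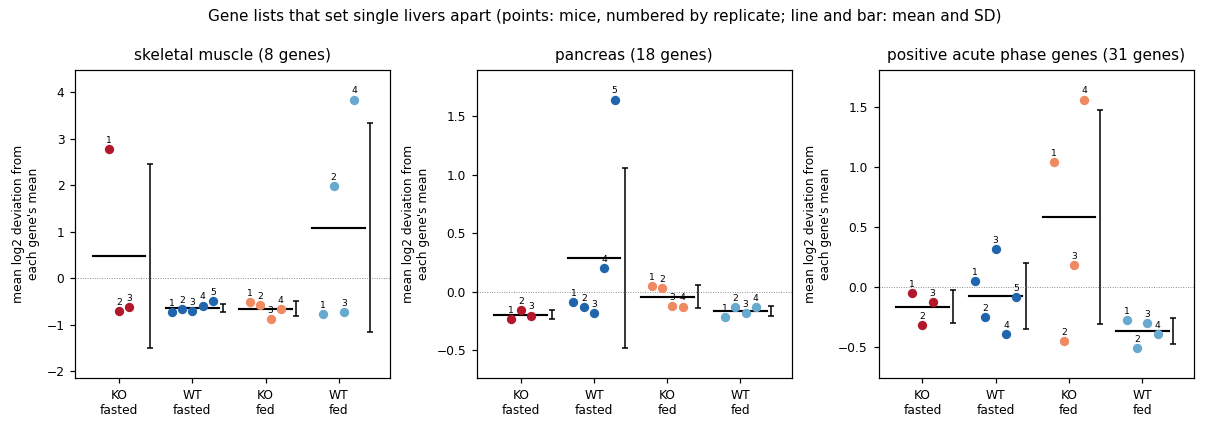
Mean log2 deviation of 3 gene lists from each gene's mean over the 16 arrays (y axis, log2), for each mouse of the 4 groups (x axis); points are mice numbered by replicate, lines are group means and bars SDs. Skeletal muscle markers set knockout fasted mouse 1 (2.77) and wild-type fed mice 4 (3.85) and 2 (1.98) apart, pancreas markers wild-type fasted mouse 5 (1.64), and acute phase genes knockout fed mice 4 (1.56) and 1 (1.04).

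The promoters of Fgf21 and Inhbe are shown because they were the members measured here whose window held the ATF4 and C/EBP composite core TGATGNAA, the element through which ATF4 acts on stress-induced hormone genes. Each is the stretch of 250 bases before to 50 bases after the gene's start, from RefSeq on GRCm38.p6, and capitals mark the letters of a searched motif.
Fgf21, chr7:45615441-45615740, minus strand: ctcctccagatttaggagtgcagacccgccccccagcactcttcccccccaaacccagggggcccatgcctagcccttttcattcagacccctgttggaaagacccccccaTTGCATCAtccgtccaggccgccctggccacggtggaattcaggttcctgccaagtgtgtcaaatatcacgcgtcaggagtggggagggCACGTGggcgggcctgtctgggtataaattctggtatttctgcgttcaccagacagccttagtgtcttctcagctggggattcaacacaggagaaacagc
Inhbe, chr10:127351799-127352098, minus strand: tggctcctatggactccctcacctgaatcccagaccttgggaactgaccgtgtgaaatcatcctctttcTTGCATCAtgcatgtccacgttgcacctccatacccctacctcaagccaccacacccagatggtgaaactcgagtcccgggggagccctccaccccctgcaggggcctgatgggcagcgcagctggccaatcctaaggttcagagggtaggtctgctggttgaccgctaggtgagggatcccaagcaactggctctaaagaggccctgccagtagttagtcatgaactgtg
In both, the core stands on the strand opposite to the gene and reads TTGCATCA, starting at base -139 of Fgf21 and at base -181 of Inhbe. Of all 32851 promoters in the table, 3.97% held this core on either strand. The E-box CACGTG, bound by many basic helix-loop-helix factors, stood at base -50 of Fgf21 and is held by 7.15% of promoters. The direct repeat of the PPAR and RXR pair in its strict form, AGGTCANAGGTCA, was in the window of no member and in 0.0396% of promoters. With the fourth base of each repeat free, AGGNCANAGGNCA, it was in the window of Gdf15 alone and in 0.381% of promoters. These windows cover 7 of the 8 members, since Angptl4 is not among them, and a match says only that the letters are there.

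Of the 7 hepatokines measured, Angptl4 rose and Lect2 fell with the fast in knockout mice, and Fgf21 and Angptl4 rose and Lect2 fell in wild-type mice. Knockout mice had 1 higher and 1 lower of 7, where 1.87% of all genes rose and 1.80% fell. In wild-type mice that is 2 higher and 1 lower of 7, where 3.30% of all genes rose and 5.92% fell. The arrays of fasted and fed mice did not overlap for 3 of 7 members in knockout and 4 of 7 in wild-type mice, against 13.2% and 12.2% of all genes. At an unadjusted p under 0.05 the counts were 5 of 7 in knockout and 4 of 7 in wild-type mice, against 15.3% and 22.6% of all genes. The median change over the members was 0.30 in knockout mice and 0.23 in wild-type mice, where the medians over all genes were -0.02 and 0.02. Since the members were chosen as genes known to answer to feeding and fasting, these counts and medians are descriptions only.

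**Figure D2:**
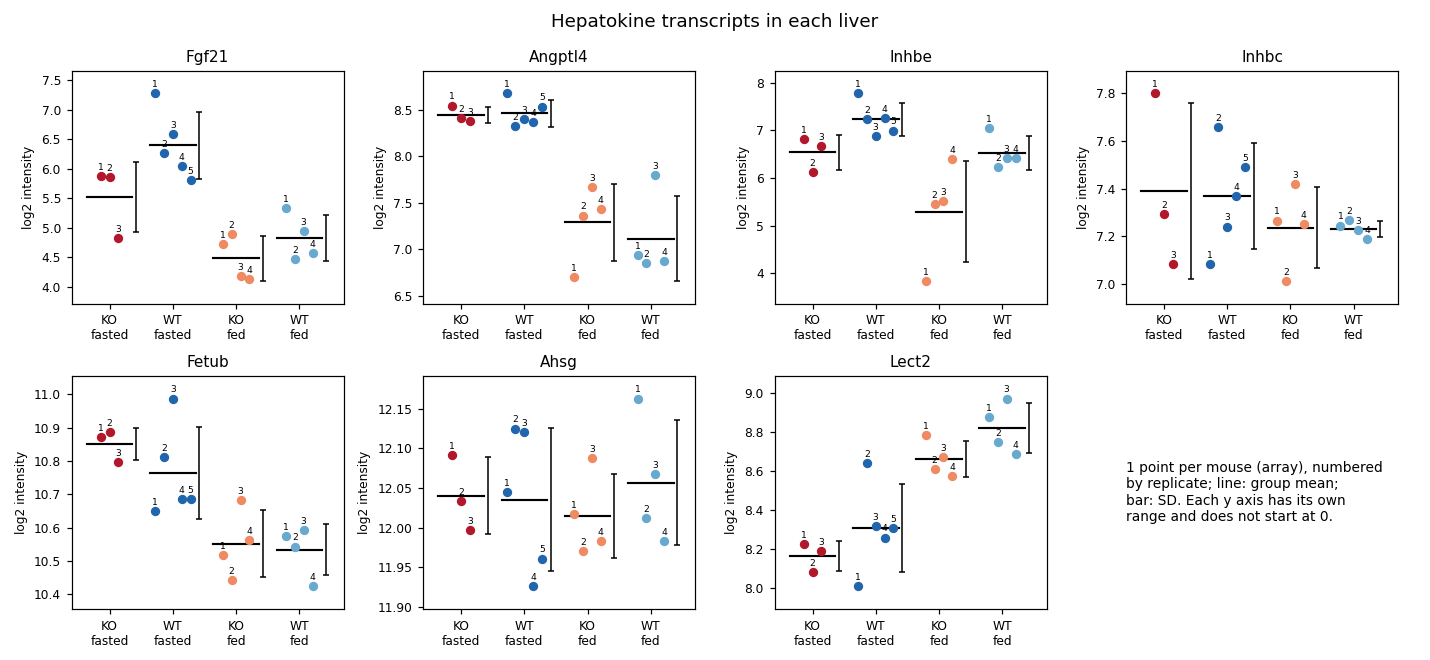
Log2 intensity of the 7 hepatokine transcripts (y axis, own range for each gene, not starting at 0) in each mouse of the 4 groups (x axis); points are mice numbered by replicate, lines are group means and bars SDs. Angptl4 separates fasted from fed livers in both genotypes, Lect2 does so in the other direction, and Ahsg stays between 11.93 and 12.16 in all livers.

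**Figure D3:**
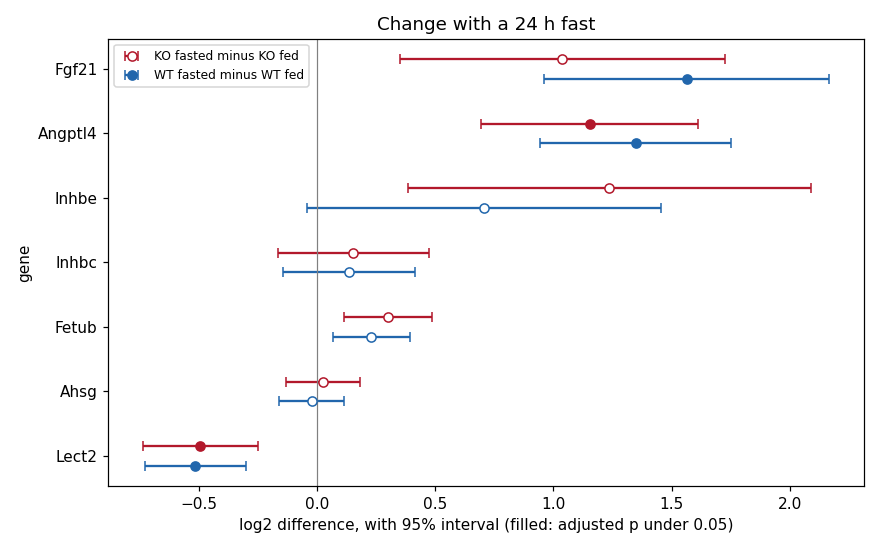
Fasted minus fed difference in log2 intensity (x axis) of each hepatokine (y axis) in knockout and wild-type mice, with 95% intervals of the limma fit; filled points passed at an adjusted p under 0.05. Angptl4 and Lect2 passed in both genotypes and Fgf21 in wild-type mice, at 1.56.

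Fgf21 (probe set 10563344) gave 5.88, 5.85 and 4.83 in knockout fasted livers, 7.28, 6.26, 6.58, 6.05 and 5.81 in wild-type fasted livers, 4.73, 4.90, 4.18 and 4.13 in knockout fed livers and 5.34, 4.48, 4.94 and 4.58 in wild-type fed livers. Knockout fasted mouse 3 lay within the range of fed knockout mice, while every wild-type fasted liver lay above every wild-type fed liver. Knockout mice averaged 5.52 ± 0.60 fasted and 4.48 ± 0.39 fed (SD, n = 3 and 4), a difference of 1.04 ± 0.32 that did not pass (limma adjusted p = 0.0956). Wild-type mice averaged 6.40 ± 0.57 fasted and 4.83 ± 0.39 fed (SD, n = 5 and 4), a rise of 1.56 ± 0.29 or 2.95-fold with a 95% interval of 1.95 to 4.49 (limma adjusted p = 0.00202). The order of group means was wild-type fasted, knockout fasted, wild-type fed and knockout fed, and each neighbouring pair in that order overlapped. Without wild-type fed mice 2 and 4 and knockout fasted mouse 1, the arrays with muscle markers, the wild-type change was 1.26 and did not pass (limma adjusted p = 0.0583). That fit has fewer mice, and it called 958 genes with the fast in wild-type mice, against 1838 with all arrays. Whether calls lost in it depend on muscle RNA or on the number of mice was not tested. In knockout mice the Fgf21 difference passed at 1.38 without knockout fasted mouse 3 (limma adjusted p = 0.0458) and at 1.04 without wild-type fasted mouse 1, which enters through the shared spread (limma adjusted p = 0.0457).

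FGF21 acts on hepatocytes and on other tissues through FGF receptors. Of 10 genes of receptors, coreceptors and related ligands, Fgf1 rose by 0.56 ± 0.12 (limma adjusted p = 0.00713) and Fgfr3 fell by 0.50 ± 0.12 (limma adjusted p = 0.0173) in fasted wild-type mice. Both lost that call without the arrays with muscle markers. None of the 10 passed in knockout mice in limma, with 3 at an unadjusted p under 0.05, against 15.3% of all genes. In wild-type mice 3.30% of all genes rose and 5.92% fell. The median of the list was -0.04 in knockout and 0.03 in wild-type mice. Klb, which encodes β-Klotho, gave 6.65, 7.11 and 6.90 in knockout fasted livers against 5.47, 5.98, 6.74 and 5.92 in knockout fed livers, and 6.25 to 7.06 in the 5 wild-type fasted livers against 6.30, 5.91, 6.38 and 5.84 in wild-type fed livers. Its difference was 0.86 ± 0.24 in knockout mice (limma adjusted p = 0.0634) and 0.69 ± 0.21 in wild-type mice (limma adjusted p = 0.0543), so neither passed and the groups overlapped. Fgfr4, the main FGF receptor of hepatocytes, differed by -0.27 in knockout and -0.30 in wild-type mice and passed in neither.

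Among 16 known regulators of Fgf21 and Angptl4, 1 rose with the fast in knockout mice (median 0.12), and 4 rose and 3 fell in wild-type mice (median 0.15). The shares over all genes were 1.87% rising in knockout mice, and 3.30% rising and 5.92% falling in wild-type mice. Ppara, which encodes the fasting receptor PPARα, gave 8.55, 8.55 and 8.43 in knockout fasted livers against 6.99, 7.83, 8.03 and 7.59 in knockout fed livers. In wild-type mice it gave 8.65, 8.66, 8.93, 9.02 and 8.95 fasted against 7.98, 7.43, 8.09 and 7.86 fed. It thus lay higher in every fasted than in every fed liver of its genotype. The rise was 0.90 ± 0.20 in knockout mice (limma adjusted p = 0.0154) and 1.00 ± 0.17 in wild-type mice (limma adjusted p = 0.00125). The knockout value lost its call in 5 of 27 alternatives, among them leaving out knockout fasted mouse 1 or 2, and was lowest, at 0.58, without knockout fed mice 1 and 4. Creb3l3, the liver factor that acts with PPARα on Fgf21, rose by 0.50 ± 0.09 in wild-type mice (limma adjusted p = 0.00139). Mlxipl, which encodes the carbohydrate response factor ChREBP, differed by -0.39 ± 0.16 in knockout mice (limma adjusted p = 0.221) and fell by 0.84 ± 0.14 in wild-type mice (limma adjusted p = 0.000923). Foxo1, the insulin-restrained factor of the fasted liver, rose by 0.51 in wild-type mice (limma adjusted p = 0.0217), a call lost without wild-type fed mouse 1 and without the arrays with muscle markers, and its values over the 27 alternatives ran from 0.40 to 0.57. Ppard fell by 0.54 in wild-type mice (limma adjusted p = 0.025), a call lost in 5 of 27 alternatives, among them leaving out wild-type fed mouse 2 or 3 or wild-type fasted mouse 2, with values between -0.65 and -0.41. The other calls in wild-type mice were a rise of 0.37 in Nr1h4, the bile acid receptor FXR, lost in 11 of 27 alternatives, and a fall of 0.29 in Nr3c1, the glucocorticoid receptor (limma adjusted p = 0.0413 and 0.032). Nr3c1 was named after its value was seen.

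Angptl4 (probe set 10450038) gave 8.55, 8.41 and 8.38 in knockout fasted livers, 8.68, 8.33, 8.40, 8.37 and 8.53 in wild-type fasted livers, 6.70, 7.36, 7.67 and 7.43 in knockout fed livers and 6.94, 6.85, 7.80 and 6.87 in wild-type fed livers. All 8 fasted livers lay above all 8 fed livers. Knockout mice averaged 8.44 ± 0.09 fasted and 7.29 ± 0.41 fed (SD, n = 3 and 4), a rise of 1.15 ± 0.22 or 2.22-fold with a 95% interval of 1.62 to 3.05 (limma adjusted p = 0.00621). Wild-type mice averaged 8.46 ± 0.14 fasted and 7.11 ± 0.46 fed (SD, n = 5 and 4), a rise of 1.35 ± 0.19 or 2.54-fold with a 95% interval of 1.93 to 3.36 (limma adjusted p = 0.000258). The order of means was wild-type fasted, knockout fasted, knockout fed and wild-type fed, and within a feeding state the genotypes overlapped. Leaving out wild-type fed mouse 3, the fed liver with the highest value, gave 1.58 in wild-type mice. Without knockout fed mice 1 and 4 the knockout change was 0.93 and no longer passed (limma adjusted p = 0.0604). Without the arrays with muscle markers it was 1.10 in knockout (limma adjusted p = 0.0357) and 1.09 in wild-type mice (limma adjusted p = 0.0164).

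Other PPAR target genes of liver moved the same way more often than not. Of 16 measured, 10 rose and 0 fell in fasted knockout mice with a median of 0.78, and 13 rose and 1 fell in fasted wild-type mice with a median of 1.15, where all genes had medians of -0.02 and 0.02. With the fast 1.87% of all genes rose and 1.80% fell in knockout mice, and 3.30% and 5.92% in wild-type mice. The largest changes among the 16 were those of the fatty acid omega-hydroxylases. Cyp4a14 rose by 4.93 ± 0.69 in knockout (limma adjusted p = 0.000794) and by 7.20 ± 0.61 in wild-type mice (limma adjusted p = 1.47e-06). Cyp4a10 rose by 3.13 ± 0.42 in knockout (limma adjusted p = 0.000542) and by 4.93 ± 0.37 in wild-type mice (limma adjusted p = 6.55e-07). The gene that fell in wild-type mice was Cd36, a fatty acid transporter, by 0.83 ± 0.18 (limma adjusted p = 0.00595). Without knockout fed mice 1 and 4, 7 of the 16 rose in knockout mice, and without the arrays with muscle markers 8 did. Over all genes these fits called 218 and 343 in knockout mice in either direction, against 732 with all arrays.

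Lipoprotein lipase and its inhibitors, the system on which ANGPTL4 acts, changed in both directions. Of 15 genes measured, 1 rose in fasted knockout mice (median 0.08) and 2 rose and 2 fell in fasted wild-type mice (median 0.07). Against these stand 1.87% of all genes rising in knockout mice, and 3.30% rising and 5.92% falling in wild-type mice. Lipg, endothelial lipase, rose by 1.94 ± 0.23 in wild-type mice (limma adjusted p = 5.77e-05). Angptl8, a feeding-induced partner in lipase inhibition, differed by -0.25 ± 0.41 in knockout mice (limma adjusted p = 0.855) and fell by 1.98 ± 0.36 in wild-type mice (limma adjusted p = 0.00187). Its fed knockout livers gave 5.84, 5.11, 5.16 and 7.06, of which the first 3 lay below all 4 fed wild-type livers, at 7.70, 6.60, 7.12 and 6.81. For Angptl8, neither the knockout difference in fed mice nor the genotype difference in the fasting change passed in limma. Apoa5, an activator of triglyceride clearance, rose by 0.53 ± 0.12 in knockout (limma adjusted p = 0.023) and by 0.69 ± 0.11 in wild-type mice (limma adjusted p = 0.000581). The knockout call was lost in 7 of 27 alternatives, among them leaving out knockout fed mouse 4 or any of the 3 fasted knockout mice, with values from 0.31. Of the 4 other angiopoietin-like genes measured, none passed in knockout mice in limma (median 0.12), and 0 had an unadjusted p under 0.05. Angptl8 was the 1 that passed in wild-type mice (list median -0.08).

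Lpl itself gave 6.36, 5.19 and 5.49 in knockout fasted livers, 4.54, 4.13, 4.53, 4.32 and 4.32 in wild-type fasted livers, 4.86, 5.94, 5.64 and 6.00 in knockout fed livers and 5.08, 5.73, 5.31 and 7.18 in wild-type fed livers. The highest values, 6.36 in knockout fasted mouse 1 and 7.18 in wild-type fed mouse 4, are from arrays with muscle markers at 2.77 and 3.85. Wild-type fed mouse 2, with muscle markers at 1.98, had 5.73, below knockout fed mice 2 and 4, and the part of muscle RNA in these values was not tested. In knockout mice it differed by 0.07 ± 0.40 with the fast (limma adjusted p = 0.967). It fell by 1.46 ± 0.35 in wild-type mice (limma adjusted p = 0.0127), a change of -0.82 without these arrays that did not pass (limma adjusted p = 0.0657). Every fasted knockout liver lay above every fasted wild-type liver, and that difference of 1.31 ± 0.38 did not pass (limma adjusted p = 0.176).

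**Figure D4:**
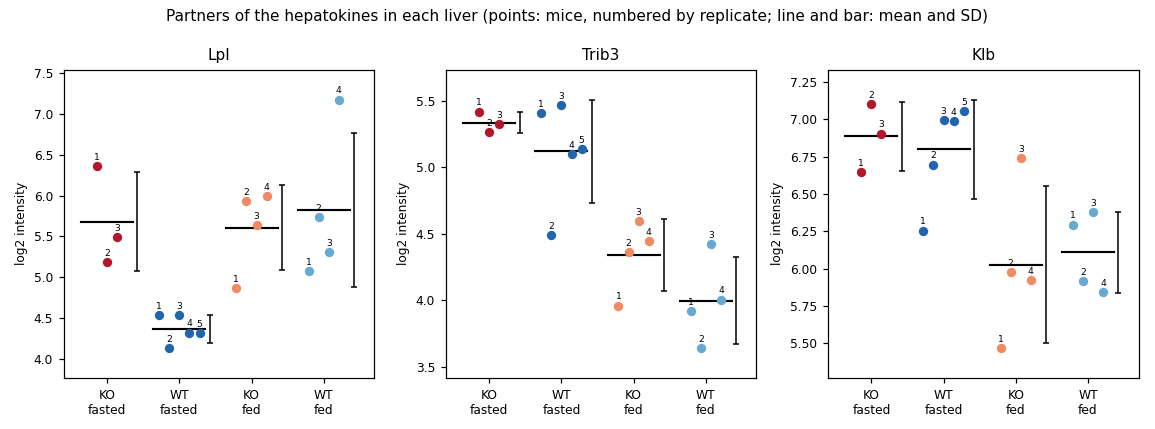
Log2 intensity (y axis, own range for each gene, not starting at 0) of Lpl, the lipase that ANGPTL4 inhibits, Trib3, a target of ATF4, and Klb, the coreceptor of FGF21, in each mouse of the 4 groups (x axis); points are mice numbered by replicate, lines are group means and bars SDs. Lpl is lowest in wild-type fasted livers, at 4.13 to 4.54, and Trib3 is higher in every fasted than in every fed liver of the same genotype.

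Inhbe (probe set 10373192) gave 6.82, 6.12 and 6.66 in knockout fasted livers, 7.77, 7.24, 6.88, 7.26 and 6.99 in wild-type fasted livers, 3.84, 5.45, 5.51 and 6.39 in knockout fed livers and 7.05, 6.22, 6.41 and 6.41 in wild-type fed livers. It ran lowest in fed knockout mice and highest in fasted wild-type mice, and fed knockout mouse 1 was far below all other livers. Knockout mice averaged 6.53 ± 0.37 fasted and 5.30 ± 1.06 fed (SD, n = 3 and 4), a difference of 1.24 ± 0.40 that did not pass (limma adjusted p = 0.115). Wild-type mice averaged 7.23 ± 0.34 fasted and 6.52 ± 0.36 fed (SD, n = 5 and 4), a difference of 0.71 ± 0.35 that did not pass either (limma adjusted p = 0.251). In order the means were wild-type fasted, knockout fasted, wild-type fed and knockout fed; of the neighbouring pairs the first did not overlap and the rest did. The spread of fed knockout mice bears on the wild-type test. Without knockout fed mice 1 and 4 the wild-type difference of 0.71 passed (limma adjusted p = 0.0301). The knockout difference moved either way with the fed knockout liver dropped. Leaving out mouse 4, the highest of them, gave 1.60, which passed (limma adjusted p = 0.0265). Leaving out mouse 1, the lowest, gave 0.75, which did not pass.

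Inhbc (probe set 10373197), which neighbours Inhbe on chromosome 10 with no protein-coding gene between them in GRCm38.p6, passed in none of the 6 contrasts. It gave 7.80, 7.29 and 7.08 in knockout fasted livers, 7.08, 7.66, 7.24, 7.37 and 7.49 in wild-type fasted livers, 7.27, 7.01, 7.42 and 7.25 in knockout fed livers and 7.25, 7.27, 7.23 and 7.19 in wild-type fed livers. Group means were 7.39 ± 0.37, 7.37 ± 0.22, 7.24 ± 0.17 and 7.23 ± 0.03 (SD) in that order, and all groups overlapped. Fasted minus fed was 0.15 with a 95% interval of -0.16 to 0.47 in knockout mice and 0.14 with an interval of -0.14 to 0.42 in wild-type mice. Without the arrays with muscle markers, or without knockout fasted mouse 1 alone, the knockout value was -0.05. Across the 16 livers Inhbe and Inhbc correlated at r = 0.18, and at r = -0.03 after group means were removed.

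The wider activin pathway was measured in full. Of 25 genes of subunits, binding proteins, receptors and SMADs, 2 rose in fasted knockout mice (median 0.05), where 1.87% of all genes rose, and 2 rose and 2 fell in fasted wild-type mice (median 0.02), where 3.30% rose and 5.92% fell. Inhba, the activin A subunit, gave 4.27, 4.26 and 4.46 in knockout fasted livers against 6.01, 4.91, 5.68 and 5.26 in knockout fed livers. In wild-type mice it gave 4.50, 4.13, 4.31, 4.35 and 4.43 fasted against 7.37, 6.20, 5.57 and 5.42 fed. It fell by 1.80 ± 0.30 in wild-type mice (limma adjusted p = 0.000941), kept past the threshold in all 27 alternatives. In knockout mice Inhba did not pass in limma, though every fasted liver lay below every fed liver. Activin receptor Acvr1 fell by 0.37, Bmp6, the iron-regulated ligand, rose by 0.37 and Inhbb, the activin B subunit, rose by 0.34, all in wild-type mice. These calls were lost in 11, 5 and 7 of 27 alternatives: leaving out wild-type fed mouse 3 or 4 ended each of them, mouse 1 those of Acvr1 and Bmp6, and mouse 2 those of Acvr1 and Inhbb. Wild-type fasted mice whose omission ended a call were 1, 2, 4 and 5 for Acvr1, 4 for Bmp6 and 1 and 5 for Inhbb, and knockout fasted mouse 3 did so for Acvr1. In knockout mice Smad7, an inhibitor of TGF-β signalling, rose by 0.87 and the ligand Bmp2 by 0.64, calls lost in 10 and 8 of 27 alternatives. Leaving out knockout fed mouse 1 or 2 or knockout fasted mouse 1 or 3 ended both, knockout fed mouse 3, wild-type fed mouse 3 or wild-type fasted mouse 4 that of Smad7, and knockout fasted mouse 2 that of Bmp2. Without the arrays with muscle markers, 0 of the 25 passed in knockout mice in limma, and 0 rose and 1 fell in wild-type mice. That fit called 343 of all genes in knockout and 958 in wild-type mice, against 732 and 1838 with all arrays. Follistatin, Fst, which binds activins, differed by -0.10 in knockout and -0.37 in wild-type mice and did not pass.

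Fetub (probe set 10434698) gave 10.87, 10.89 and 10.80 in knockout fasted livers, 10.65, 10.81, 10.99, 10.68 and 10.69 in wild-type fasted livers, 10.52, 10.44, 10.68 and 10.56 in knockout fed livers and 10.58, 10.54, 10.59 and 10.42 in wild-type fed livers. Within each genotype every fasted liver lay above every fed liver. The difference was 0.30 ± 0.09 in knockout mice (limma adjusted p = 0.072) and 0.23 ± 0.08 in wild-type mice (limma adjusted p = 0.0762), or 1.23-fold and 1.17-fold, and neither passed. Group means were 10.85 ± 0.05, 10.76 ± 0.14, 10.55 ± 0.10 and 10.53 ± 0.08 (SD) in the order of the values above, and the genotypes overlapped within each feeding state. The knockout difference passed at 0.34 without knockout fed mouse 3 (limma adjusted p = 0.0415) and at 0.30 without wild-type fasted mouse 3 (limma adjusted p = 0.0419).

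Ahsg (probe set 10434689), the neighbour of Fetub on chromosome 16, gave 12.09, 12.03 and 11.997 in knockout fasted livers, 12.04, 12.13, 12.12, 11.93 and 11.96 in wild-type fasted livers, 12.02, 11.97, 12.09 and 11.98 in knockout fed livers and 12.16, 12.01, 12.07 and 11.98 in wild-type fed livers. No group was set apart. Means were 12.04 ± 0.05, 12.04 ± 0.09, 12.01 ± 0.05 and 12.06 ± 0.08 (SD), so their order is not defined beyond the spread. The fasting difference was 0.03 with a 95% interval of -0.13 to 0.18 in knockout mice and -0.02 with an interval of -0.16 to 0.12 in wild-type mice, or 0.914- to 1.13-fold and 0.896- to 1.08-fold. The sign turned in knockout mice under quantile normalization and in wild-type mice without wild-type fed mouse 1 or wild-type fasted mouse 4. Of 14 other genes of the superfamily, of inter-alpha-trypsin inhibitor heavy chains and of proteases, 0 passed in knockout mice in limma (median -0.01). There 2 had an unadjusted p under 0.05, against 15.3% of all genes. In fasted wild-type mice, where 3.30% of all genes rose, 1 of the 14 did (median -0.01). That gene was Hrg, histidine-rich glycoprotein, which follows Fetub on chromosome 16. Hrg rose by 0.31 ± 0.08 (limma adjusted p = 0.024), a call lost in 5 of 27 alternatives, among them leaving out wild-type fed mouse 1 or 2 or wild-type fasted mouse 3, with values between 0.26 and 0.35.

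Lect2 (probe set 10409592) gave 8.23, 8.08 and 8.19 in knockout fasted livers, 8.01, 8.64, 8.32, 8.26 and 8.31 in wild-type fasted livers, 8.78, 8.61, 8.67 and 8.57 in knockout fed livers and 8.88, 8.75, 8.97 and 8.69 in wild-type fed livers. Every fasted liver lay below every fed liver of its genotype. Knockout mice averaged 8.17 ± 0.08 fasted and 8.66 ± 0.09 fed (SD, n = 3 and 4), and Lect2 fell by 0.49 ± 0.12, to 0.711 of the fed level (limma adjusted p = 0.023). Wild-type mice averaged 8.31 ± 0.22 fasted and 8.82 ± 0.13 fed (SD, n = 5 and 4), and it fell by 0.51 ± 0.10, to 0.700 of the fed level (limma adjusted p = 0.00344). From the highest the order was wild-type fed, knockout fed, wild-type fasted and knockout fasted, and neighbouring groups overlapped at each step. The knockout call was lost without knockout fed mouse 1 (-0.45, limma adjusted p = 0.0687) and without knockout fasted mouse 1 (-0.52, limma adjusted p = 0.0548), mouse 2 (-0.45, limma adjusted p = 0.115) or mouse 3 (-0.51, limma adjusted p = 0.0745). It was also lost without knockout fed mice 1 and 4, at -0.47 (limma adjusted p = 0.14), and without the arrays with muscle markers, at -0.52 (limma adjusted p = 0.0717). Of 9 genes of the LECT2 and GDF15 receptors and their partners, Tek fell by 0.42 and Ctnnb1, which encodes β-catenin, by 0.35 in fasted wild-type mice (limma adjusted p = 0.00702 and 0.0144; list median 0.00), Ctnnb1 losing its call without the arrays with muscle markers. None of the 9 passed in knockout mice in limma (median -0.01), with 2 at an unadjusted p under 0.05, against 15.3% of all genes. In wild-type mice 5.92% of all genes fell.

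The knockout was compared with wild type separately in each feeding state, and no hepatokine passed in either. Among fasted mice 0 of 7 passed in limma, where 0.537% of all genes did, 1 of 7 had an unadjusted p under 0.05, against 10.4% of all genes, and 1 did not overlap, against 8.25% of all genes. In fed mice 0 of 7 passed in limma, where 0.677% of all genes did, and 1 of 7 had an unadjusted p under 0.05, against 13.2% of all genes. No member was without overlap there, against 6.70% of all genes. The medians over the members were -0.02 in fasted and -0.04 in fed mice, where those over all genes were -0.02 and 0.01.

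Inhbe and Fgf21 held the largest knockout differences. Inhbe differed by -0.70 ± 0.39 in fasted mice (limma adjusted p = 0.58), and all 3 knockout livers lay below all 5 wild-type livers. In fed mice its difference was -1.22 ± 0.37 with a 95% interval of -2.02 to -0.43 (limma adjusted p = 0.152), and 3 of 4 knockout livers lay below every wild-type liver. Without knockout fed mice 1 and 4, which carry the highest acute phase values, the fed difference was -1.04 (limma adjusted p = 0.144), and without knockout fed mouse 1 alone it was -0.74. Fgf21 differed by -0.87 ± 0.31 in fasted mice, with an interval of -1.53 to -0.22 (limma adjusted p = 0.308), and by -0.35 ± 0.30 in fed mice (limma adjusted p = 0.658). The fasted value came to -0.53 without knockout fasted mouse 3 and to -1.05 without knockout fasted mouse 1.

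Taken as the mean of both feeding states, the knockout difference was -0.96 ± 0.27 for Inhbe (limma adjusted p = 0.0999) and -0.61 ± 0.22 for Fgf21 (limma adjusted p = 0.238). None of the 7 passed in that contrast, where 1.55% of all genes did, and 2 of 7 had an unadjusted p under 0.05, against 10.8% of all genes. Inhbe passed there without knockout fed mouse 4, at -1.14 (limma adjusted p = 0.0232), and without knockout fed mice 1 and 4, at -0.87 (limma adjusted p = 0.0185). It did not pass without knockout fed mouse 1 alone, the lowest of the fed knockout livers. The other 5 hepatokines gave smaller differences: Angptl4 by 0.08 with an interval of -0.22 to 0.38, Fetub by 0.05 with -0.07 to 0.18, Ahsg by -0.02 with -0.12 to 0.09, Inhbc by 0.01 with -0.20 to 0.23 and Lect2 by -0.15 with -0.31 to 0.01.

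**Figure D5:**
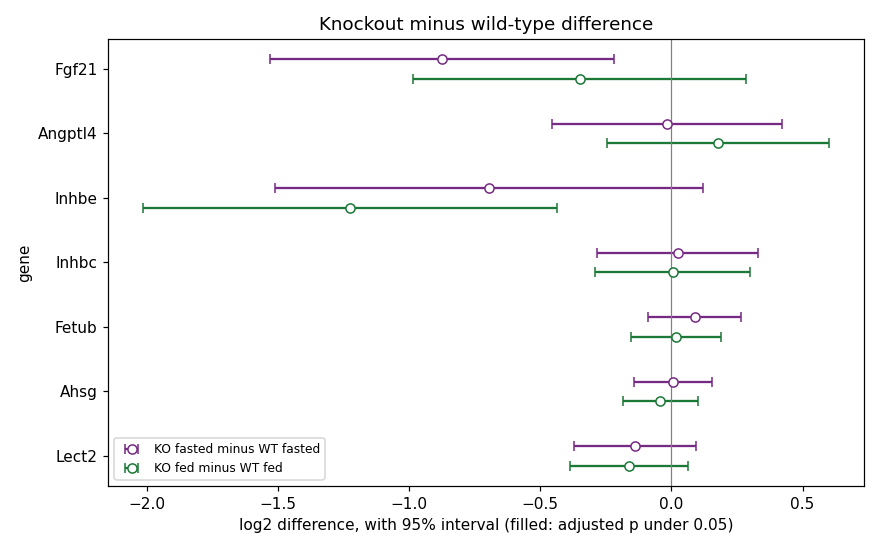
Knockout minus wild-type difference in log2 intensity (x axis) of each hepatokine (y axis) in fasted and in fed mice, with 95% intervals of the limma fit; open points did not pass at an adjusted p under 0.05. The intervals of Inhbe in fed mice (-2.02 to -0.43) and of Fgf21 in fasted mice (-1.53 to -0.22) lie below 0, before adjustment over all genes.

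Genes of the pathways around the hepatokines passed for the knockout in several lists, among them the PPAR targets, where 3 of 16 did in the mean of both states, against 1.55% of all genes. None passed in the mean in the lists of 10 FGF21 receptor, 25 activin, 14 cystatin superfamily or related, and 13 insulin signalling genes. The same held for the 9 LECT2 and GDF15 receptor genes and the 4 angiopoietin-like genes. The lists were chosen with earlier results of these data known, so the counts are descriptions only. Acadm, the medium-chain acyl-CoA dehydrogenase of fatty acid oxidation, differed by -0.45 ± 0.08 in fasted mice and by -0.39 ± 0.08 in fed mice (limma adjusted p = 0.0138 and 0.0258), calls lost in 6 and 10 of 27 alternatives. Leaving out any 1 fasted knockout mouse ended the fasted call, and leaving out any 1 fed wild-type mouse or knockout fed mouse 1 or 4 ended the fed call. In the mean Acadm differed by -0.42 ± 0.05 (limma adjusted p = 0.000836) and passed in all 26 alternatives. The other 2 PPAR targets called went the opposite way in the mean, Cyp4a10 by 1.17 and Cd36 by 0.60, with calls lost in 16 and 13 of 26 alternatives. In fed mice Cyp4a10 was 2.07 ± 0.39 higher in knockout than in wild-type livers (limma adjusted p = 0.0196), a call lost in 6 of 27 alternatives, among them leaving out knockout fed mouse 1 or wild-type fed mouse 2 or 4. In fasted mice Cd36 was 1.06 higher, a call lost without any of the 3 fasted knockout mice. Pcsk6, a proprotein convertase of the lipase system, differed by -0.70 in fasted mice and by -0.58 as the mean of both states (limma adjusted p = 0.0181 and 0.0025). The fasted call of Pcsk6 was lost without knockout fasted mouse 2 or 3. As the mean of both states Nr1h4 differed by -0.38, Pparg, the adipogenic PPAR, by -0.36 and Vldlr, the VLDL receptor, by -0.83, calls lost in 8, 10 and 5 of 26 alternatives. Apoa4, an apolipoprotein of the negative acute phase list, differed by -0.67 ± 0.13 (limma adjusted p = 0.0125) and passed in all 26. Mst1, which encodes hepatocyte growth factor-like protein, differed by -0.31 and Crp, C-reactive protein, by 0.42, calls lost in 5 and 8 of 26 alternatives.

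Whether the genotypes differed in their answer to the fast was tested as the interaction, knockout change minus wild-type change. None of the 7 passed in limma, where 0.0100% of all genes did, and 0 of 7 had an unadjusted p under 0.05, against 12.2% of all genes. For Fgf21 the interaction was -0.52 ± 0.43 with a 95% interval of -1.44 to 0.39 (limma adjusted p = 0.621), so the smaller change in knockout mice was not shown to differ. Angptl4 had -0.19 with an interval of -0.80 to 0.41, Lect2 0.02 with -0.30 to 0.35 and Inhbe 0.53 with -0.61 to 1.67. In the interaction, 0 genes of the 13 gene lists passed. A list gene called with the fast in 1 genotype alone was thus not shown to differ between genotypes.

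Angptl4 lies on chromosome 17 together with Ppard, the deleted gene, and the mice had a mixed strain background. Of the 96 genes tested that lie between them in GRCm38.p6 gene order, 2 passed for the knockout in fasted mice, or 2.08%, and 0 in fed mice. The shares of all genes were 0.537% and 0.677%. For the mean of both feeding states 2 of the 96 passed, or 2.08%, against 1.55% of all genes. Angptl4 itself differed by -0.02 in fasted and by 0.18 in fed mice and passed in neither. Whether strain alleles had a part in these counts was not tested.

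Genes of the ATF4 stress branch, which acts on Fgf21, were called in part. Of 25 genes of the integrated stress response, 2 rose and 1 fell in fasted knockout mice (median 0.05), and 4 rose and 1 fell in fasted wild-type mice (median 0.12). Over all genes 1.87% rose and 1.80% fell in knockout mice, and 3.30% rose and 5.92% fell in wild-type mice. Trib3, a pseudokinase induced by ATF4, gave 5.42, 5.27 and 5.32 in knockout fasted livers against 3.96, 4.36, 4.60 and 4.44 in knockout fed livers. In wild-type mice it gave 5.41, 4.49, 5.47, 5.10 and 5.14 fasted against 3.92, 3.64, 4.42 and 4.01 fed. Trib3 rose by 0.99 ± 0.21 in knockout (limma adjusted p = 0.0126) and by 1.12 ± 0.18 in wild-type mice (limma adjusted p = 0.000871). The knockout call was lost in 3 of 27 alternatives, among them leaving out knockout fasted mouse 1, with values between 0.86 and 1.08. Sesn2, a stress-induced inhibitor of mTORC1, rose by 0.77 ± 0.16 in knockout (limma adjusted p = 0.0099) and by 0.58 ± 0.14 in wild-type mice (limma adjusted p = 0.0125). Its knockout call was also lost in 3 of 27 alternatives, among them leaving out knockout fasted mouse 3, with values between 0.65 and 0.88. Atf5, a transcription factor of the same branch, rose by 0.70 and Ddit4, a further mTORC1 inhibitor, by 1.08 in wild-type mice. Atf5 lost its call without the arrays with muscle markers, and Ddit4 in 6 of 27 alternatives, among them leaving out wild-type fed mouse 1 or 2 or wild-type fasted mouse 3, 4 or 5. The asparaginyl-tRNA synthetase gene Nars fell by 0.47 in knockout and by 0.37 in wild-type mice. Without knockout fed mice 1 and 4, 0 of the 25 rose and 1 fell in knockout mice. With the arrays with muscle markers left out, 2 rose and 1 fell in wild-type mice. Among all genes these fits called 218 in knockout and 958 in wild-type mice, against 732 and 1838 with all arrays. Atf4 itself differed by -0.14 in knockout and -0.37 in wild-type mice (limma adjusted p = 0.76 and 0.105), and Ddit3, which encodes CHOP, by 0.00 and 0.23, and none of these passed.

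Of 13 genes of insulin signalling in liver, 1 rose and 1 fell in fasted knockout mice (median 0.04) and 3 rose and 1 fell in fasted wild-type mice (median -0.12). Shares of all genes were 1.87% higher and 1.80% lower in knockout mice, and 3.30% higher and 5.92% lower in wild-type mice. Srebf1, the insulin-induced lipogenic factor, fell by 1.47 ± 0.23 in knockout (limma adjusted p = 0.00149) and by 1.64 ± 0.20 in wild-type mice (limma adjusted p = 6.6e-05). Pck1, the gluconeogenic enzyme PEPCK, rose by 0.88 ± 0.14 in wild-type mice (limma adjusted p = 0.000648). The remaining calls in this list were Trib3 and Foxo1, given above.

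Among 31 genes of other liver hormones and their carriers, 1 rose and 1 fell in fasted knockout mice (median 0.07) and 3 rose and 2 fell in fasted wild-type mice (median 0.05). Beside them, 1.87% of all genes rose and 1.80% fell in knockout mice, and 3.30% and 5.92% in wild-type mice. Serpina7, which encodes thyroxine-binding globulin, fell by 2.23 ± 0.39 in knockout (limma adjusted p = 0.00436) and by 2.27 ± 0.34 in wild-type mice (limma adjusted p = 0.000438). The knockout call was lost without knockout fed mice 1 and 4, at -1.80 (limma adjusted p = 0.0702). Serpina12, the adipokine vaspin, differed by 0.43 ± 0.43 with the fast in knockout mice and fell by 2.47 ± 0.38 in wild-type mice (limma adjusted p = 0.000477). In fed mice it was lower in knockout than in wild type by 1.88 ± 0.40, at -1.88 (limma adjusted p = 0.0389), a call lost in 15 of 27 alternatives, among them leaving out any of 10 single mice. Igfbp2, a carrier of insulin-like growth factors, rose by 0.78 in knockout and 0.76 in wild-type mice. The knockout call was lost in 6 of 27 alternatives, among them leaving out knockout fed mouse 4 or any fasted knockout mouse. In wild-type mice Smoc1, a secreted matrix protein, rose by 0.39 and Igfbp4, a further carrier named after its value was seen, by 0.38. Without the arrays with muscle markers 0 of the 31 rose and 2 fell in wild-type mice. That fit called 958 of all genes there, against 1838 with all arrays.

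Acute phase genes, listed because Ahsg encodes a negative acute phase protein, were highest in 2 fed knockout mice. Of 31 positive acute phase genes, 0 rose and 2 fell in fasted knockout mice (median -0.28), while 5 rose and 2 fell in fasted wild-type mice (median 0.00). All genes together had 1.87% rising and 1.80% falling in knockout mice, and 3.30% rising and 5.92% falling in wild-type mice. Saa1, serum amyloid A, fell by 3.81 ± 0.95 in knockout mice (limma adjusted p = 0.0324), a call lost in 10 of 27 alternatives, among them leaving out knockout fed mouse 1 or 4 or any fasted knockout mouse. Steap4, a metalloreductase, fell by 1.92 and lost its call in the same number of alternatives, among them the same 5 mice. In wild-type mice the metallothionein genes Mt2 and Mt1 rose by 4.41 ± 1.17 and 3.84 ± 0.82, the factor Cebpb by 0.99, Lbp, the lipopolysaccharide-binding protein, by 0.87 and Serpina3n by 0.49. The calls of Lbp and Mt2 were lost in 10 and 5 of 27 alternatives, that of Lbp without any 1 of the 4 wild-type fed mice or without wild-type fasted mouse 1, 2 or 3, and that of Mt2 without wild-type fed mouse 2 or 3 or wild-type fasted mouse 3. The fibrinogen chains Fgg and Fgb fell by 0.41 and 0.31. Serpina3n, Fgg and Fgb were named after their values were seen. Without knockout fed mice 1 and 4, 3 of the 31 rose and 0 fell in knockout mice. With the arrays with muscle markers left out, 0 rose and 2 fell in wild-type mice. Of all genes these fits called 218 in knockout and 958 in wild-type mice, against 732 and 1838 with all arrays. Lcn2, lipocalin 2, was 3.12 higher in fed knockout than in fed wild-type mice and did not pass (limma adjusted p = 0.129). Of 16 negative acute phase genes, 0 passed in fasted knockout mice in limma (median 0.13). There 4 had an unadjusted p under 0.05, against 15.3% of all genes. Hrg and F12 rose in fasted wild-type mice (median 0.09), where 3.30% of all genes did. F12 lost its call in 16 of 27 alternatives. Knockout fed mice 4 and 1, with acute phase values of 1.56 and 1.04, had 11.98 and 12.02 of Ahsg, within the range of the other fed livers.

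Each hepatokine was also set beside the 11960 other genes with a mean above the dim limit, by Pearson's r over the 16 livers. These livers share 4 groups, so r over log2 values carries the group differences, and r over deviations from the group means does not. No p is given. The genes most like Fgf21 were Ech1 (r = 0.934), Lgals4 (0.926) and Dhrs4 (0.915), and on deviations Micos13 (0.863), Spg21 (0.844) and Lmln (0.817). Angptl4 was followed most closely by St3gal5 (0.949), Slc35g1 (0.947) and Acot12 (0.943), and on deviations by Wdr19 (0.835), Zfp866 (0.835) and Stxbp3 (0.815). For Inhbe they were Nanp (0.924), Prox1 (0.896) and Elk4 (0.895), with Ppfibp1 (0.904), Siah1a (0.901) and Fzd6 (0.853) on deviations.

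Lect2 had Pygl (0.929), Tmie (0.918) and Haao (0.917), and Cryl1 (0.873), Sigirr (0.865) and Cmtm7 (0.837) on deviations. Fetub was closest to its chromosomal neighbour Hrg (0.929), then Dcun1d4 (0.915) and Cyp2c38 (0.898), with Rab32 (0.869), Ankle2 (0.868) and Lilrb4a (0.868) on deviations. The nearest to Ahsg were Nod1 (0.840), Btbd1 (0.836) and Ripor1 (0.827), and on deviations Ern1 (0.891), Btbd1 (0.871) and Tmbim1 (0.863). Inhbc was nearest to Agap1 (0.871), Ptdss1 (0.813) and Ctsh (0.796), and on deviations to Ptdss1 (0.900), C2cd5 (0.864) and Agap1 (0.863).

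Between the hepatokines themselves, Fgf21 and Angptl4 correlated at r = 0.727 over log2 values and at 0.06 over deviations. Angptl4 and Lect2 stood at -0.798 and -0.06. Fetub and Ahsg went the other way, at 0.408 over log2 values and 0.726 over deviations. Angptl4 and Inhbe held 0.615 and 0.503.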

How the data were processed

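RNA of 1 liver per mouse was hybridised to 1 Affymetrix array each, 16 in all, which the labels call biological replicates. The deposited values are linear probe set intensities, which the authors made with RMA (robust multi-array average), as the submitters' processing notes record; the array medians lay between 8.08 and 8.61, and no values were missing. Log2 was taken here of the deposited intensities. Of 35519 probe sets, the platform annotation gave 21780 a single gene symbol and 1605 more than 1, and left 12134 unnamed. The brightest probe set stood for each of the 998 genes with several, leaving 19935 genes.

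All 16 arrays entered 1 limma 3.58.1 fit in R 4.3.3 with 4 group means and moderated variances (12 residual degrees of freedom plus 4.55 from the prior). Tests were two-sided, and p-values were adjusted by Benjamini-Hochberg over all genes. The fit was tested on simulated data. Groups came from the labels, which give no batch, slide or date; the series text speaks of 4 to 5 mice a group, and 3 knockout fasted arrays were used.

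The hepatokines and gene lists were chosen with earlier results of these data known. Genes named are the hepatokines, up to 4 called members of each list with the largest change, some fixed list members whatever their p, and the 3 most correlated genes each way. Alternatives were quantile normalization, centring, a filter on dim probe sets, other probe set rules, array weights, an intensity trend, a replicate block, fits of 2 groups alone, and leaving out each mouse or mice 1 and 4 of the fed knockouts. Leaving out the 3 arrays with muscle markers was added after seeing the data. The number of arrays limits precision. Coordinates are those of RefSeq promoters on GRCm38.p6; no source used here gives the build behind the array annotation.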

Additional observations from a re-analysis of the deposited data

Results flagged for a closer look

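Angptl4 in wild-type fed mouse 3 stood far from the other fed wild-type livers, at 7.80 against 6.94 for the nearest, a gap of 0.908 of the group's whole range. Among 21 groups of 4 or 5 mice examined in this way it was the 1 such value, and chance marks about 1 in 20. All fasted livers still lay above it.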

How the results depend on the processing

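Of 1120 values of 42 hepatokine results under 27 alternatives, 1048 kept their direction and their side of the threshold, 8 lost a call, 13 gained one and 51 turned sign, the last all in results that had not passed. The rises of Angptl4 and Fgf21 and the fall of Lect2 in wild-type mice held when any 1 mouse was left out.

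Without the arrays with muscle markers, the fast called 343 genes in knockout and 958 in wild-type mice, the knockout 34 in fasted and 29 in fed mice, the interaction 4 and the mean knockout difference 145. There Lect2 changed by -0.52 in fasted knockout mice, Fgf21 by 1.26 in fasted wild-type mice, and 1 hepatokine was called in knockout mice. Signs turned there for Inhbc (-0.0490 with the fast in knockout mice, -0.181 for the knockout in fasted mice, -0.18 in the interaction and -0.0896 in the mean), Angptl4 (-0.0763 in fed mice, 0.00858 in the interaction and -0.0720 in the mean), Fetub (-0.0326 in fed mice) and Ahsg (-0.0205 in fasted mice). These fits have fewer mice, and no other cause was tested.

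Without knockout fed mice 1 and 4, the fast called 218 genes in knockout mice, the knockout 51 in fed mice, the interaction 1 and the mean 171. Angptl4 gave 0.93 and Lect2 -0.47 in fasted knockout mice, where 0 hepatokines were called in limma. Inhbe passed at 0.71 for fasting in wild-type mice and at -0.87 for the mean knockout difference, the 1 hepatokine called there, and Inhbc gave -0.0165 in fed mice. With only the groups compared in the fit, 401 genes were called for fasting in knockout mice and 76 for the knockout in fed mice, and Inhbe passed at 0.71 in fasted wild-type mice. That fit was not run for the interaction and the mean.

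Array weights gave 185 genes for the knockout in fasted mice, Fetub passing at 0.25 in fasted wild-type mice, and turned Inhbc (-0.0117) and Ahsg (-0.0154) in fasted mice and Inhbc in the interaction (-0.0397). Quantile normalization gave Fetub 0.32 and Ahsg -0.00153 for fasting in knockout mice, Inhbc -0.0100 and Ahsg -0.00684 for the knockout in fasted mice, and Inhbc -0.0442 and Lect2 -0.0247 in the interaction. Centring on the common median gave Angptl4 0.00282 for the knockout in fasted mice. The interaction held 1 gene with dim genes left out and with an intensity trend. The cause was not tested for these changes.

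With the replicate block, Fgf21 passed at 0.92 in fasted knockout mice and at -0.75 for the mean knockout difference, the 1 hepatokine called there, Ahsg gave -0.0393 in fasted mice, Lect2 -0.00868 in the interaction, and 1 gene was called in the interaction. Same-numbered mice of different groups correlated at -0.22 to 0.21 in their deviations over 21 pairs, 5 of them over 0.1, with a median of 0.08. The 74 pairs with other numbers ran from -0.29 to 0.26, 16 of them over 0.1, with a median of -0.04. These ranges cannot decide whether mice were paired. The labels do not say that replicate numbers pair mice, so the numbers were not taken as pairs.

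Leaving out 1 mouse at a time called 330 to 951 genes with the fast in livers of knockouts and 1199 to 2006 in those of wild types, 21 to 126 with the knockout in fasted and 59 to 274 in fed mice, 0 to 8 in the interaction and 175 to 359 in the mean. Hepatokines called were 1 to 3 for fasting in knockout mice and 0 to 1 for the mean. Lect2 ranged from -0.52 to -0.45 for fasting in knockout mice. Signs turned for Ahsg (-0.0455 to 0.0143 with the fast in wild-type mice, -0.0223 to 0.0275 for the knockout in fasted mice), Inhbc (-0.0490 to 0.31 with the fast in knockout mice, -0.18 to 0.18 for the knockout in fasted and -0.0561 to 0.0799 in fed mice, -0.19 to 0.17 in the interaction and -0.0880 to 0.0913 in the mean), Fetub (-0.0262 to 0.0538 in fed mice), Angptl4 (-0.0677 to 0.0372 in fasted mice) and Lect2 (-0.0532 to 0.10 in the interaction).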

Other observations

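The 15 Kupffer cell markers had mean log2 deviations of -0.01 to 0.15 in knockout fasted, -0.55 to 0.06 in wild-type fasted, 0.31 to 0.43 in knockout fed and -0.22 to -0.05 in wild-type fed livers. Fed knockout livers thus lay above all others. Acute phase values in knockout fed mice 1, 2, 3 and 4 were 1.04, -0.45, 0.18 and 1.56. Whether the 2 kinds of values are linked was not tested.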
